A study of Mus musculus with 3 samples.

Results

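The 8 laminin chain genes Lama2, Lama3, Lama4, Lama5, Lamb1, Lamb2, Lamb3 and Lamc1 and the nidogen gene Nid1 were followed across the cell classes of the mouse uterus at pregnancy day 7.5. They were taken by gene symbol, and all 9 were found among the 32287 features of the matrix. Together they gave 6590 UMIs (unique molecular identifiers, the unit in which a captured RNA molecule is counted), which was 0.0451% of the UMIs in the cells analysed. The single-cell series names 3 samples of uterus from females that lived with their littermates up to 8 weeks of age, were mated with stud males and gave the tissue on day 7.5 of pregnancy. The library analysed has no genotype in its labels. A sample with the genotype Prl8a2icre/+ Sun1-GFPLsL/+ and a sample with Sun1-GFPLsL/+ and no Cre were not analysed here. The uterus was taken apart with trypsin, which digests proteins around cells, and how many animals were pooled is not stated in the labels.

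Laminins are cross-shaped trimers of 1 alpha, 1 beta and 1 gamma chain and form the sheet of the basement membrane that faces the cell. Cells bind them mainly through integrins and dystroglycan, and nidogens link the laminin sheet to the collagen IV network. The alpha chain largely sets which receptors a laminin binds, and trimers are named by their chains, so that laminin 211 holds alpha 2, beta 1 and gamma 1. In the rodent uterus, decidual cells surround themselves with a pericellular basement membrane when the stroma differentiates after implantation.

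The library held 16848794 UMIs in 2775 barcodes, and 1812 cells with 14622717 UMIs and a median of 4509.5 UMIs per cell were kept. They formed 21 clusters, which were given to 10 classes by fixed marker genes that include none of the 9 genes, and the 9 genes were also left out of clustering. A class is called by its markers with the ending -like, and the names may differ from the authors' own. The summed epithelium markers reached 2389 to 6101 CPM (UMIs of a gene per 1000000 UMIs of the cells summed) in the 5 epithelium-like clusters, and was 29.0 CPM among endothelium-like cells. The decidual marker Tdo2 had 2419 CPM in decidual stroma-like and 29.4 CPM in undifferentiated stroma-like cells. The decidual clusters were unequally marked. Cluster 1 had 7 decidual markers in at least 10% of its cells and 2 among its 10 leading genes, and cluster 16 had 4 and 0. The B cell-like cluster of 32 cells also had Siglech and Ccr9 among its leading genes, and its summed dendritic cell markers reached 1753 CPM. A cluster of 35 cells stayed unnamed and entered no class. There is 1 library, so no value has a replicate check and no test was made. Every interval given is an exact 95% interval and reflects the error of counting alone. A gene was compared between 2 groups where they held at least 50 of its UMIs together, and was called higher or lower where the ratio reached 2-fold and its interval left out 1. Since 3' UMI counts also depend on how well each gene is primed and captured, levels are compared for 1 gene between classes and not between genes.

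Stroma-like cells, pericyte-like cells and endothelium-like cells held most of the highest levels. The highest class was decidual stroma-like for 3 of the 9 genes (Lama5, Lamb2, Lamc1), pericyte-like for 2 (Lama4, Nid1), undifferentiated stroma-like for 2 (Lama2, Lamb1), endothelium-like for Lama3 and B cell-like for Lamb3. For Lama2, Lama3, Lama4 and Lamb1 the highest class was not apart from the next beyond counting error. That of Lamb3 rests on 5 UMIs. Of 12171 genes measured, 5.04% were highest in decidual stroma-like, 9.83% in pericyte-like, 12.2% in undifferentiated stroma-like, 11.2% in endothelium-like and 13.7% in B cell-like cells. None of the 9 was highest in mesothelium-like (12.0% of all genes), epithelium-like (8.80%), NK and innate lymphoid-like (10.5%), T cell-like (10.2%) or mononuclear phagocyte-like cells (6.44%). In mononuclear phagocyte-like cells no gene of the 9 exceeded 5.79 CPM, and in NK and innate lymphoid-like cells none but Lamb3 exceeded 6.83 CPM. The map of levels by class shows these values side by side.

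**Figure D1:**
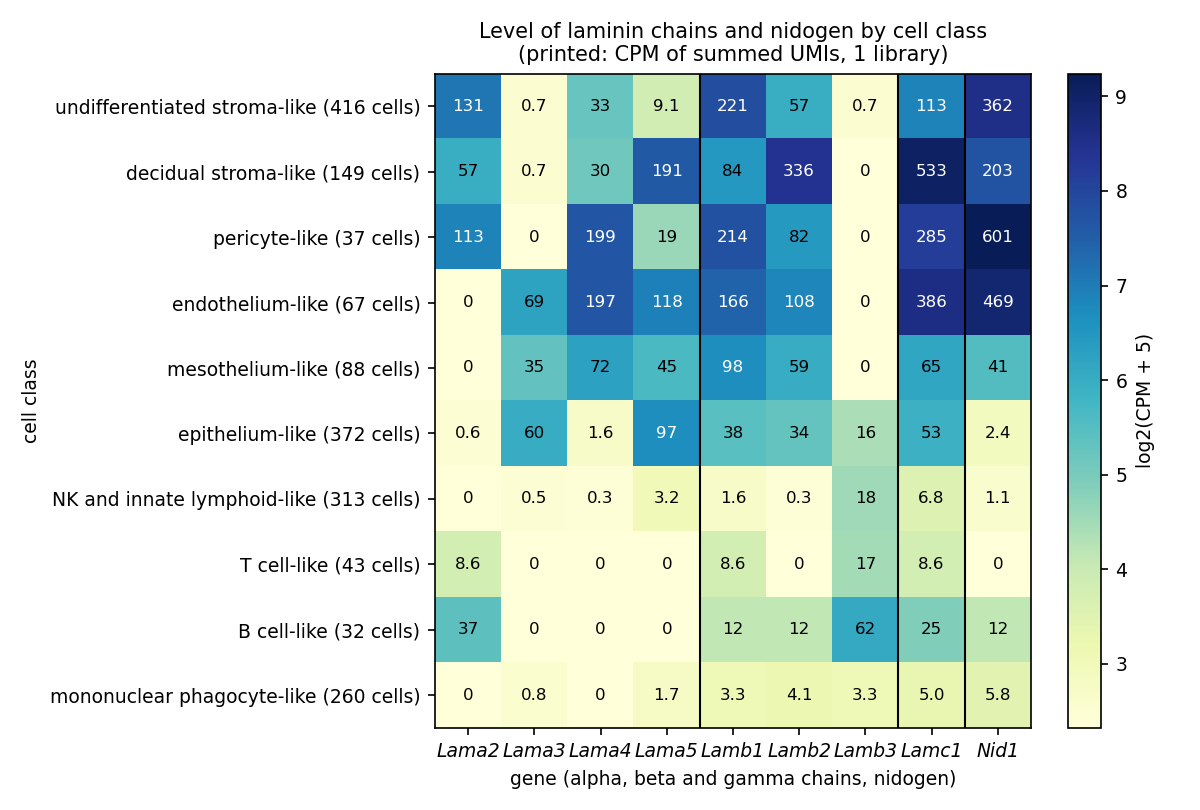
Level of the 9 genes (columns) in the 10 cell classes (rows), as CPM of summed UMIs printed in each cell and coloured by log2(CPM + 5), in 1 library. Lamc1 was highest in decidual stroma-like cells at 533 CPM and Nid1 in pericyte-like cells at 601 CPM, and Lamb3 is the 1 gene with over 10 CPM in NK and innate lymphoid-like cells.

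Among the alpha chains, Lama2 (chr10:26980036-27619758, minus strand, in GENCODE M21 on GRCm38) encodes the chain of the laminins of muscle and connective tissue. It had 131 CPM (114 to 151; 201 UMIs) in undifferentiated stroma-like cells, 113 CPM (75.7 to 162; 29 UMIs) in pericyte-like cells and 57.4 CPM (45.7 to 71.2; 83 UMIs) in decidual stroma-like cells. The first and second of these were not apart beyond counting error, and both lay above the third. No UMI of Lama2 was found in endothelium-like, mesothelium-like, NK and innate lymphoid-like or mononuclear phagocyte-like cells, where 3 counts would be 5.79, 6.13, 0.788 and 2.48 CPM. Lama3 encodes an alpha chain of the anchoring laminins of epithelia. It had 69.5 CPM (48.7 to 96.2; 36 UMIs) in endothelium-like, 59.6 CPM (53.1 to 66.7; 304 UMIs) in epithelium-like and 34.8 CPM (20.2 to 55.6; 17 UMIs) in mesothelium-like cells, and at most 1 UMI in each stroma-like class. Endothelium-like and epithelium-like cells were not apart for Lama3, with a ratio of 1.17 (0.802 to 1.65). The 36 endothelial UMIs came from 23 of 67 cells, and after thinning every cell to 2000 UMIs 4.84% (1.01 to 13.5) of 62 endothelium-like cells had one, against 12.0% (8.75 to 16.04) of 332 epithelium-like cells, 1 of 310 undifferentiated stroma-like cells and none of 264 NK and innate lymphoid-like cells. In the 55 of 67 endothelium-like cells with no UMI of the 10 epithelium markers Lama3 had 74.4 CPM (50.5 to 106). The remaining endothelium-like cells held UMIs of these markers.

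Lama4 (chr10:38965515-39110188, plus strand) encodes an alpha chain of vessel walls and mesenchyme. Its level was 199 CPM (148 to 261) in pericyte-like and 197 CPM (161 to 239) in endothelium-like cells, a ratio of endothelium-like to pericyte-like of 0.9899 (0.701 to 1.41). Mesothelium-like cells had 71.6 CPM (49.8 to 99.5), undifferentiated stroma-like 32.6 CPM (24.2 to 43.0) and decidual stroma-like 29.8 CPM (21.5 to 40.1), and epithelium-like cells 1.57 CPM (0.677 to 3.09). Lama5 (chr2:180176373-180225859, minus strand) encodes the alpha chain of laminins 511 and 521, found under epithelia and in vessels. It had 191 CPM (169 to 215; 276 UMIs) in decidual stroma-like, 118 CPM (90.1 to 151; 61 UMIs) in endothelium-like and 97.2 CPM (88.8 to 106; 496 UMIs) in epithelium-like cells. Decidual stroma-like cells exceeded epithelium-like cells 1.96-fold (1.69 to 2.28), while endothelium-like and epithelium-like cells were not apart. Lower values were 44.98 CPM (28.2 to 68.1) in mesothelium-like, 19.5 CPM (6.33 to 45.5) in pericyte-like and 9.14 CPM (4.997 to 15.3) in undifferentiated stroma-like cells. Lama4 and Lama5 thus differed in where they were low: pericyte-like cells held much Lama4 and little Lama5, and epithelium-like cells the reverse.

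The beta chains Lamb1 and Lamb2 are alternatives in the same trimers. Lamb1 (chr12:31265234-31329644, plus strand) had 221 CPM (198 to 245; 338 UMIs) in undifferentiated stroma-like, 214 CPM (162 to 279) in pericyte-like and 166 CPM (133 to 205) in endothelium-like cells. Neighbours in this order were not apart. Mesothelium-like cells had 98.1 CPM (72.4 to 130), decidual stroma-like 83.7 CPM (69.5 to 100.04; 121 UMIs) and epithelium-like 38.4 CPM (33.2 to 44.2). Lamb2 (chr9:108479736-108490530, plus strand), the beta chain of laminins at synapses, in kidney and in vessels, had 336 CPM (306 to 367; 485 UMIs) in decidual stroma-like cells. The next class, endothelium-like, had 108 CPM (81.7 to 140), and decidual stroma-like cells exceeded it 3.105-fold (2.35 to 4.17). Pericyte-like cells with 81.9 CPM, mesothelium-like with 59.3 CPM and undifferentiated stroma-like with 56.8 CPM (45.5 to 70.1) were each not apart from the class above in the order. Epithelium-like cells had 34.1 CPM (29.2 to 39.6) and lay below undifferentiated stroma-like cells, which exceeded them 1.67-fold (1.27 to 2.17). Lamb3 (chr1:193207699-193343878, plus strand), a beta chain of the anchoring laminins of epithelia, was a gene of few UMIs, with 163 in all cells. It was at 0 in decidual stroma-like, pericyte-like, endothelium-like and mesothelium-like cells and is described with the lymphoid classes.

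Lamc1 (chr1:153218922-153332786, minus strand) encodes the gamma chain that most laminins share. It had 533 CPM (496 to 572; 770 UMIs) in decidual stroma-like, 386 CPM (334 to 443) in endothelium-like, 285 CPM (223 to 358) in pericyte-like, 113 CPM (96.7 to 131; 173 UMIs) in undifferentiated stroma-like, 65.4 CPM (44.7 to 92.4) in mesothelium-like and 53.5 CPM (47.3 to 60.2) in epithelium-like cells. Each of the first 4 classes lay above the next beyond counting error, and the last pair was not apart. Nid1 (chr13:13437551-13512269, plus strand), the linker of laminin and collagen IV, had 601 CPM (509 to 703; 154 UMIs) in pericyte-like, 469 CPM (412 to 532) in endothelium-like, 362 CPM (332 to 393) in undifferentiated stroma-like and 203 CPM (181 to 228) in decidual stroma-like cells, each above the next. Mesothelium-like cells had 40.9 CPM (25.0 to 63.1), and epithelium-like cells had 2.35 CPM (1.22 to 4.11), or 12 UMIs among 5102937. Nid1 was therefore a gene of stroma and vessel wall in this library, with the epithelium-like level between those of NK and innate lymphoid-like (1.05 CPM) and mononuclear phagocyte-like cells (5.79 CPM).

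Set beside the other chains of the same kind, the classes differed in the share of UMIs that each gene gave. Of alpha chain UMIs in undifferentiated stroma-like cells Lama2 gave 72.6% (66.9 to 77.7; 277 UMIs in all) and Lama5 5.05%. In decidual stroma-like cells Lama5 gave 61.3% (56.7 to 65.9; 450 UMIs), Lama2 18.4% and Lama1, the alpha chain best known from early embryonic basement membranes, 10.4% (7.78 to 13.6). The beta chain shares differed between the same classes. Lamb1 gave 79.3% (75.2 to 83.1) of beta chain UMIs in undifferentiated stroma-like cells and a smaller share in decidual stroma-like cells. Lamb2 gave 80.0% (76.6 to 83.2) in decidual stroma-like cells and a smaller share in undifferentiated stroma-like cells. Lama4 gave 60.0% (48.8 to 70.5) of alpha chain UMIs in pericyte-like and 51.3% (44.1 to 58.4) in endothelium-like cells. Of nidogen UMIs, Nid2 gave 83.1% (75.0 to 89.3; 118 UMIs) in mesothelium-like and 30.4% (25.6 to 35.5) in endothelium-like cells, against 4.65% (3.08 to 6.69) in undifferentiated stroma-like cells. A share within a class mixes genes of different priming and capture, so the shares serve only to compare classes.

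**Figure D2:**
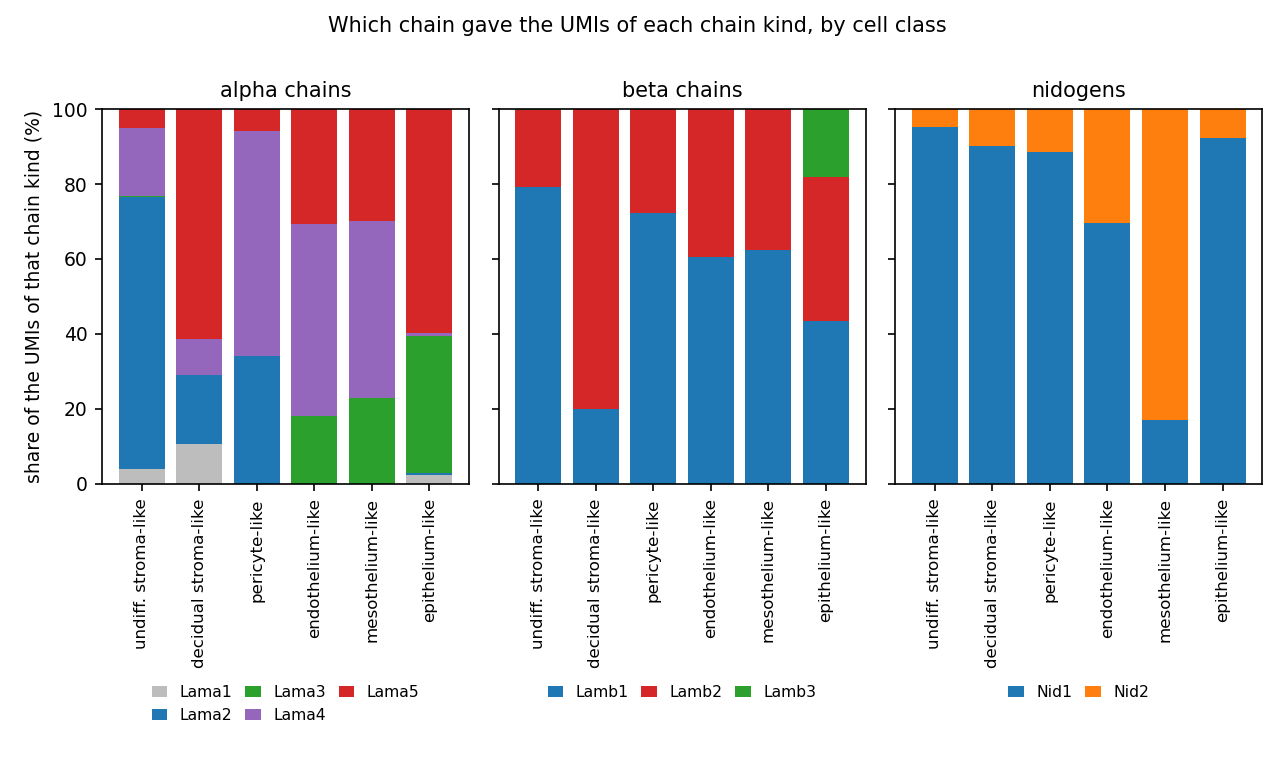
Share (%) of the UMIs of the alpha and beta chains and of the nidogens that each gene gave, in 6 cell classes of 1 library. The shares of Lama2 (72.6%) and Lamb1 (79.3%) in undifferentiated stroma-like cells are larger than in decidual stroma-like cells. Those of Lama5 (61.3%) and Lamb2 (80.0%) in decidual stroma-like cells are larger than in undifferentiated ones. The share of Nid2 is largest in mesothelium-like cells (83.1%). Genes differ in priming and capture, so a share compares classes and does not rank genes within a class.

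The first comparison asked which of the 9 genes differ between decidual and undifferentiated stroma-like cells. Lama5, Lamb2 and Lamc1 were higher and Lama2 and Lamb1 lower in decidual stroma-like cells, and Lama4 and Nid1 were neither. That is 3 higher (8.75% of all 7455 genes compared) and 2 lower (18.4% of all) of the 7 genes with enough UMIs, and the median log2 ratio was -0.13 over the 7 and -0.31 over all genes. Lama5 had 191 against 9.14 CPM and was 20.9-fold higher (12.2 to 38.7). Lamb2 had 336 against 56.8 CPM and was 5.91-fold higher (4.69 to 7.51). Lamc1 had 533 against 113 CPM and was 4.72-fold higher (3.996 to 5.60). After thinning to 2000 UMIs, 18.3% (12.1 to 26.0) of 131 decidual stroma-like cells had a UMI of Lama5 against 1.94% (0.714 to 4.16) of 310 undifferentiated stroma-like cells, and 1.89% (0.618 to 4.36) of 264 NK and innate lymphoid-like cells, taken as a class that should lack the gene. Before thinning the shares were 45.6%, 2.88% and 3.51%, at median depths of 6839, 3304 and 5807 UMIs.

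Lama2 had 57.4 against 131 CPM and was 2.28-fold lower (1.76 to 2.99), and Lamb1 had 83.7 against 221 CPM and was 2.64-fold lower (2.14 to 3.27). Lama4 stood at 29.8 against 32.6 CPM (ratio 0.912, 0.592 to 1.40) and Nid1 at 203 against 362 CPM (ratio 0.563, 0.487 to 0.649). Lama3 with 2 UMIs and Lamb3 with 1 over both classes could not be compared. The clusters within each class show where the differences lie. Lama5 had 240 CPM in decidual cluster 1 and 86.9 CPM in decidual cluster 16, against 19.5 and 5.96 CPM in undifferentiated clusters 5 and 6. Lamb2 had 326 and 356 CPM against 89.4 and 46.9 CPM, and Lamc1 had 589 and 413 CPM against 83.8 and 122 CPM. These 3 genes had higher levels in each decidual cluster than in either undifferentiated one, as had 10.8% of all genes compared. Lama2 had 38.6 and 97.7 CPM against 114.5 and 136 CPM, and Lamb1 had 43.7 and 169 CPM against 173 and 235 CPM. Both genes were lower in each decidual cluster (41.5% of all genes were), but in cluster 16 their intervals overlapped those of undifferentiated cluster 5, so the lower calls rest on cluster 1.

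**Figure D3:**
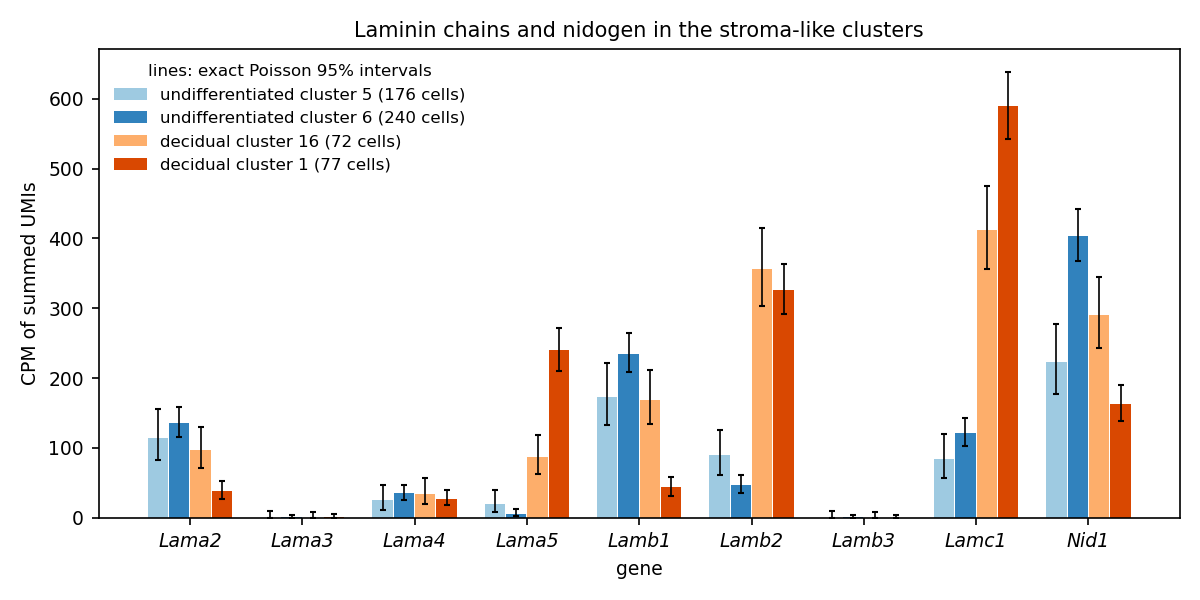
CPM of summed UMIs of the 9 genes in the 4 stroma-like clusters of 1 library, with exact Poisson 95% intervals as lines. Lamb2 and Lamc1 are high in both decidual clusters, Lama5 is highest in cluster 1 at 240 CPM, and Lamb1 is low in cluster 1 alone at 43.7 CPM.

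With each cell weighing the same the 3 higher calls stood (Lama5 16.9-fold), and Lama2 and Lamb1 were no longer called, with ratios of 0.502 and 0.632. Thinned, Lama5 had a ratio of 15.4 with too few UMIs for a call and Lamb1 a ratio of 0.692, and with no filter on cells neither Lama5 (1.70), Lama2 (0.533) nor Lamb1 (0.513) was called, in a setting whose undifferentiated class had 499.6 CPM of Tdo2 in place of 29.4. Without clusters 16 and 5, those of the higher mitochondrial share in each class, the ratio was 40.2 for Lama5, 0.283 for Lama2 and 0.186 for Lamb1, and Nid1 was lower at 0.402. Decidual stroma-like cells had a median of 12.1% mitochondrial UMIs against 4.29%. Their 10 epithelium markers summed to 165 CPM against 77.03 CPM. The 68 of 149 decidual stroma-like cells with no UMI of these markers had 145 CPM of Lama5 (110 to 188).

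Of the 38 listed basement membrane, matrix protease and laminin receptor genes 25 could be compared. In decidual stroma-like cells 9 were higher (8.75% of all genes compared) and 4 lower (18.4% of all). The median log2 ratio was 0.08 over the 25 and -0.31 over all genes. Tinagl1, a matrix protein of basement membranes, stood at 98.9 against 1.31 CPM, a ratio of 75.8 (20.6 to 632). Fras1, a protein of the epithelial basement membrane, stood at 83.7 against 1.31 CPM, a ratio of 64.1 (17.4 to 536). The undifferentiated side of both rests on 2 UMIs. Col18a1, the precursor of endostatin, was 11.9-fold lower (6.25 to 25.4) and Col4a6, a collagen IV chain, 8.08-fold lower (4.80 to 14.5). Among the alpha chains outside the 9, Lama1 was 4.53-fold higher (2.32 to 9.68), at 32.5 against 7.18 CPM.

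**Figure D4:**
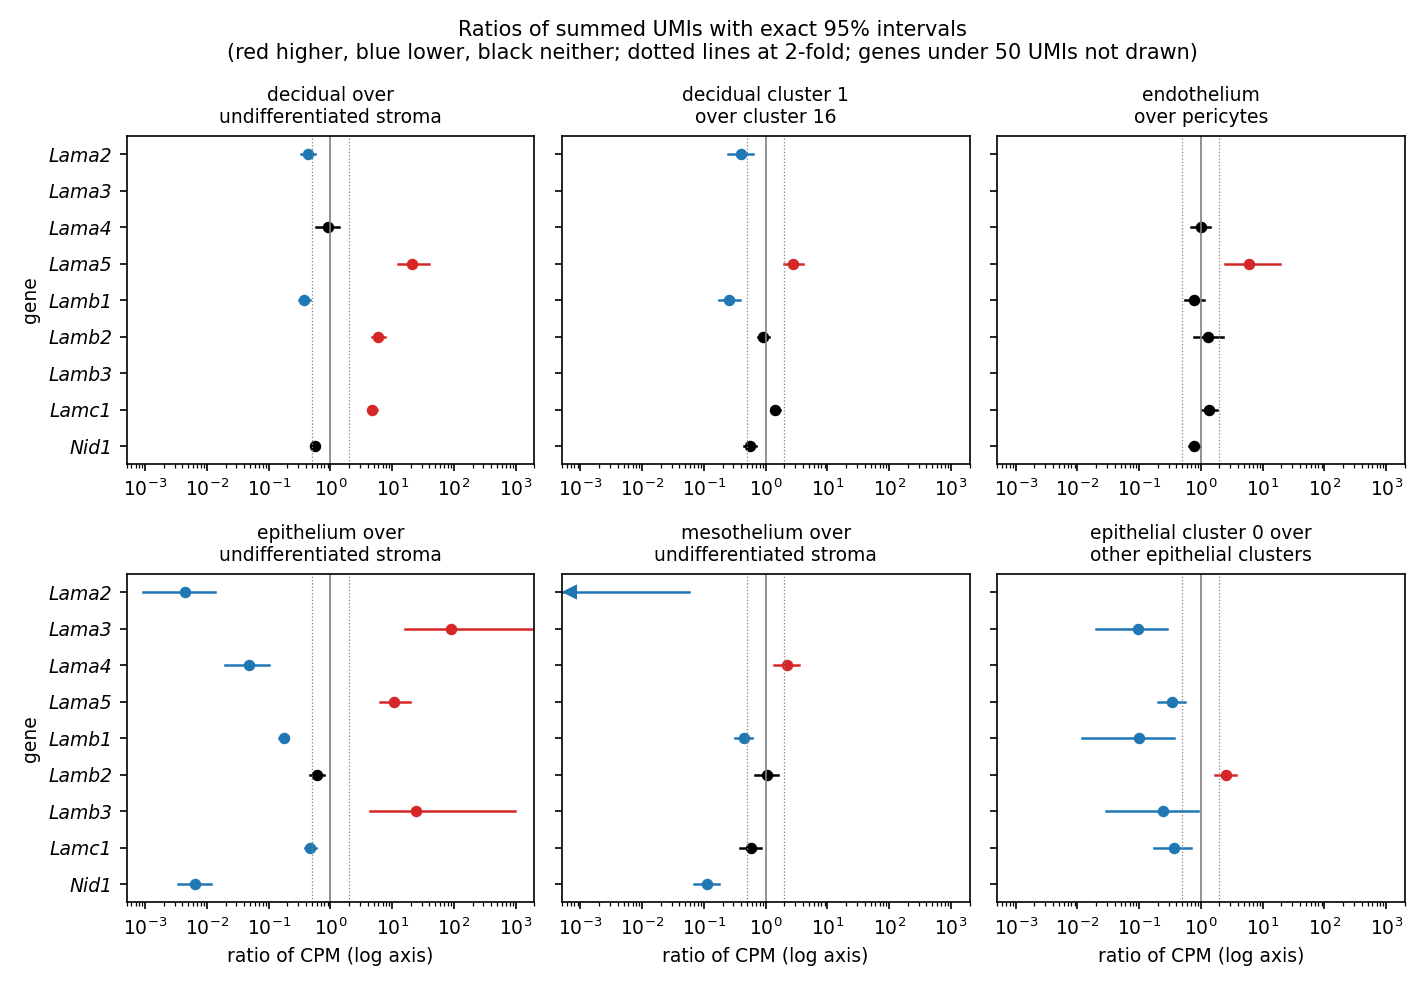
Ratio of CPM (log axis) with its exact 95% interval for each of the 9 genes with at least 50 UMIs, in the 6 comparisons between cell classes or clusters of 1 library (red higher, blue lower, black neither, arrow for a ratio of 0; the axis ends at 2000, short of the upper bound of Lama3 in epithelium-like cells). Lama5 is higher in decidual stroma-like cells (20.9-fold), endothelium-like cells (6.04-fold) and epithelium-like cells (10.6-fold) in their comparisons, and Nid1 is lower in epithelium-like and mesothelium-like cells.

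The promoters of the genes that moved in opposite directions are shown because of the alpha and beta chains among the 9 genes Lama5 and Lamb2 were called higher and Lama2 and Lamb1 lower in decidual stroma-like cells. Each sequence is the 250 bases before the gene's start in RefSeq on GRCm38.p6, read 5′ to 3′ on the gene's strand. RefSeq and GENCODE M21 place some starts differently: the Lama2 window lies wholly, and the Lamb2 and Lamb1 windows partly, within the GENCODE spans given above, so the Lama2 window is not upstream of the outermost GENCODE start. 6 of the 9 genes matched an entry of the promoter table, and Lama3, Lama4 and Lamc1 did not. Capitals mark matches, on either strand, to the GC box letters GGGCGG or the CCAAT box letters CCAAT, and no 2 matches overlap in these windows. The AP-1 letters TGANTCA, the E-box letters CACGTG and the TATA box letters TATAAA were searched too and gave no match in these windows.
Lama5 (chr2:180225860-180226109, minus strand): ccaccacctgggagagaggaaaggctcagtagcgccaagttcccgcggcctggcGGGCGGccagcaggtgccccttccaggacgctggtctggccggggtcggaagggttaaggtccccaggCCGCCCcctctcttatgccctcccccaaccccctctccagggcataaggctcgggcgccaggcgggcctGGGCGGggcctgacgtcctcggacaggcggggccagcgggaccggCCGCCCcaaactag
Lama2 (chr10:27616943-27617192, minus strand): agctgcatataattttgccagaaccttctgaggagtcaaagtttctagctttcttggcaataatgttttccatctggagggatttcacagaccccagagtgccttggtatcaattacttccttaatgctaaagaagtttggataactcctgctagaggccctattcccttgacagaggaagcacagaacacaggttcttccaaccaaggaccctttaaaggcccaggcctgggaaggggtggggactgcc
Lamb2 (chr9:108479612-108479861, plus strand): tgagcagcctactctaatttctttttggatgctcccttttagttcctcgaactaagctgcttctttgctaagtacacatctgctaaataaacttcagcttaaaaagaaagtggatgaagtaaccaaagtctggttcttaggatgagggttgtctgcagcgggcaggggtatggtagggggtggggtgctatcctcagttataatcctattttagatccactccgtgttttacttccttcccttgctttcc
Lamb1 (chr12:31265043-31265292, plus strand): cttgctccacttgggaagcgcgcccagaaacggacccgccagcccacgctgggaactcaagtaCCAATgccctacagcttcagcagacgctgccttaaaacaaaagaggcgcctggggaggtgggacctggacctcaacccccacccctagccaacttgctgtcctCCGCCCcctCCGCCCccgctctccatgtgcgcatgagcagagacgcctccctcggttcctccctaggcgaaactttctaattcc
The Lama5 window held 4 GC boxes, beginning 196, 128, 59 and 14 bases before the start, and 72.4% G and C. The Lamb1 window held 2 GC boxes, at 84 and 75 bases, and 1 CCAAT box at 187 bases, with 62.0% G and C. The Lamb2 window (43.6% G and C) and the Lama2 window (47.2%) held no match to any of the 5 motifs. Among 32851 promoters of the same length 32.7% held a GC box, 33.8% a CCAAT box, 6.75% the AP-1 letters, 6.02% the E-box and 12.4% the TATA letters, and the median was 52.4% G and C. GC boxes were found in the windows of both Lama5, called higher, and Lamb1, called lower. Any bearing of the motifs on the levels was not tested.

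Within the decidual stroma-like class, cluster 1 (77 cells) and cluster 16 (72 cells) were divided by the summed level of Bmp2 and Wnt4, signals of the decidual reaction, at 631 and 30.4 CPM. Lama5 was 2.76-fold higher (1.97 to 3.96) in the rich cluster, at 240 against 86.9 CPM. Lamb1 was 3.88-fold lower (2.64 to 5.77), at 43.7 against 169 CPM, and Lama2 2.53-fold lower (1.61 to 4.01), at 38.6 against 97.7 CPM. That is 1 higher (21.5% of 4268 genes compared) and 2 lower (6.79%) of 6 genes, with a median log2 ratio of -0.48 over the 6 and 0.28 over all. Lamb2 stood at 326 against 356 CPM (ratio 0.915, 0.756 to 1.11), Lamc1 at 589 against 413 CPM (1.43, 1.21 to 1.69) and Nid1 at 162 against 291 CPM (0.558, 0.441 to 0.708). Of the list, 20 genes could be compared, 3 were higher (21.5% of all genes compared) and 6 lower (6.79% of all). Col15a1, a collagen at the outer face of basement membranes, was 5.51-fold higher (3.45 to 9.33) and Cd151, a partner of laminin-binding integrins, 3.61-fold higher (1.64 to 9.40). Fras1 was 5.47-fold lower (3.64 to 8.39) and Itga6, a laminin receptor chain, 3.97-fold lower (2.28 to 7.11). The rich cluster was deeper (median 9510 against 5313.5 UMIs) and had a lower mitochondrial share (median 9.83% against 13.7%), and their part in the differences was not tested. With equal weights Lama2 was not called (ratio 0.535), and thinned, none of the 9 was called and the ratio of Lama5 was 1.60.

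In the vessel wall, endothelium-like and pericyte-like cells both held Lama4, Lamb1, Lamb2, Lamc1 and Nid1. Of the other alpha chains Lama5 alone had enough UMIs for a call. Lama5 was 6.04-fold higher (2.45 to 19.3) in endothelium-like cells, at 118 against 19.5 CPM, which was 1 of 6 genes higher (20.2% of 3106 genes compared) and none lower (8.15%). Lama2 had no UMI in endothelium-like cells against 29 in pericyte-like cells, at least 14.9-fold lower by its exact interval. Lama3 had 36 UMIs in endothelium-like cells against none, at least 4.59-fold higher by its exact interval. Both were under the 50 UMIs set for a call and would be called at a minimum of 20. The ratios of the others were 0.9899 for Lama4, 0.774 (0.545 to 1.11) for Lamb1, 1.32 (0.787 to 2.30) for Lamb2, 1.36 (1.03 to 1.80) for Lamc1 and 0.781 (0.636 to 0.962) for Nid1. The median log2 ratio was 0.19 over the 6 genes and over all genes. Of the list 7 of 19 genes were higher (20.2% of all genes compared) and 5 lower (8.15% of all) in endothelium-like cells. Npnt, an integrin ligand of basement membranes, stood at 263 against 3.90 CPM, a ratio of 67.3 (11.9 to 2678) with 1 UMI in pericyte-like cells, and Hspg2, the perlecan gene, was 4.84-fold higher (3.36 to 7.20). Col15a1 was 3.998-fold lower (2.79 to 5.80) and Itga1, a receptor for collagen IV and laminin, 3.16-fold lower (2.67 to 3.75). Pericyte-like cells numbered 37 and had 5 UMIs of Lama5, thinned to 2000 UMIs it had too few for a call, and at the limit of 10% mitochondrial UMIs its ratio was 20.6.

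All 9 genes could be compared between epithelium-like and undifferentiated stroma-like cells, and Lamb1, Lamb2 and Lamc1 were found in both. Epithelium-like cells were higher in 3 (19.2% of 9731 genes compared) and lower in 5 (26.1%), with a median log2 ratio of -1.08 over the 9 and -0.25 over all. Lama5 was 10.6-fold higher (6.28 to 19.6), at 97.2 against 9.14 CPM. Lama3 and Lamb3 were 91.3-fold (16.3 to 3616) and 24.6-fold (4.30 to 984) higher, each against 1 UMI in stroma. Lama2 was 223-fold lower (75.3 to 1091), Nid1 154-fold lower (87.3 to 299) and Lama4 20.8-fold lower (9.79 to 50.9). Lamb1 was 5.74-fold lower (4.80 to 6.89) and Lamc1 2.11-fold lower (1.73 to 2.56), and Lamb2 was neither (ratio 0.6004, 0.462 to 0.786). With no filter on cells the ratio of Lama5 was 0.943 and that of Lamb2 0.314 (lower), in the setting whose undifferentiated class had 499.6 CPM of Tdo2. Lamc1 was not called with equal weights (0.586), and thinned, Lama3, Lamb3 and Lama4 had too few UMIs for a call while Lamb2 was lower (0.479).

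Of the list 28 genes could be compared between epithelium-like and undifferentiated stroma-like cells. Of these 11 were higher (19.2% of all genes compared) and 11 lower (26.1%). Itgb4, the integrin chain of hemidesmosomes, had 117 UMIs against none, at least 9.37-fold higher by its exact interval. Mmp2, a gelatinase, was 269-fold lower (135 to 625) and Col4a2, a main collagen IV chain, 212-fold lower (81.6 to 782).

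Mesothelium-like cells, which cover the uterine surface, were compared with undifferentiated stroma-like cells in 6 genes. Lama4 was 2.19-fold higher (1.38 to 3.44), which was 1 gene higher (13.2% of 6528 genes compared) against 3 lower (15.6%). Lama2 had no UMI against 201, at least 17.2-fold lower by its exact interval. Nid1 was 8.85-fold lower (5.67 to 14.6) and Lamb1 2.25-fold lower (1.66 to 3.11), and Lamb2 (ratio 1.04) and Lamc1 (ratio 0.579, 0.384 to 0.848) were neither. The median log2 ratio was -0.98 over the 6 genes and -0.09 over all. Lama5 with 22 against 14 UMIs and a ratio of 4.92 (2.41 to 10.4) had too few for a call. The call of Lama4 was lost without the filter on cells (ratio 1.82) and at the limit of 10% mitochondrial UMIs (ratio 1.83). Without the filter that of Lamb1 was lost too (0.618), and Lamc1 was lower (0.303). Of the list 7 of 21 genes were higher (13.2% of all genes compared) and 8 lower (15.6% of all). Nid2, the second nidogen, was 11.4-fold higher (7.36 to 18.1), at 200.3 against 17.6 CPM, and Bcam, a receptor for laminin alpha 5, 46.0-fold higher (26.3 to 88.0). Col15a1 and Frem1, a partner of Fras1, had no UMI and were at least 32.1-fold and 21.7-fold lower by their exact intervals. Nid1 and Nid2 thus went in opposite directions between these classes.

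Among the 5 epithelium-like clusters, cluster 0 (54 cells) was set apart by Prss28 and Prss29, the implantation serine proteases of uterine glands, which summed to 110392 CPM there and to between 25.0 and 94.1 CPM in the other 4. Cluster 0 had less of 5 genes and more of 1. Lama3 was 10.3-fold lower (3.498 to 50.3), at 6.30 against 65.1 CPM, and Lamb1 9.98-fold lower (2.73 to 83.0), at 4.20 against 41.9 CPM. Lamb3 was 4.11-fold lower (1.10 to 34.6), Lama5 2.90-fold lower (1.79 to 5.02) and Lamc1 2.71-fold lower (1.45 to 5.71). Lamb2 was 2.54-fold higher (1.71 to 3.68), at 75.6 against 29.8 CPM. These are 1 higher (7.65% of 8257 genes compared) and 5 lower (14.1%) of 6 genes, with a median log2 ratio of -1.79 over the 6 and -0.16 over all. Cluster 0 held 3 UMIs of Lama3 and 2 each of Lamb1 and Lamb3, at a median of 3877 UMIs per cell against 7280. With equal weights the calls of Lamb2 (ratio 1.32) and Lamc1 (0.536) were lost, and thinned, Lama5 alone kept a call and the ratio of Lamb2 was 0.727.

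No list gene was higher in cluster 0 (7.65% of all genes compared were) and 9 of 20 were lower (14.1% of all). Npnt and Itga2, a collagen and laminin receptor chain, had no UMI there. They were at least 8.43-fold and 4.61-fold lower by their exact intervals. Among the other 4 clusters Lama3 ranged only from 61.8 to 74.0 CPM, while Lama5 ranged from 72.7 CPM in cluster 10 to 235 CPM in cluster 9, and Lamb1 from 29.1 CPM in cluster 8 to 100.02 CPM in cluster 14. Cluster 9 had a median of 16.8% mitochondrial UMIs, the highest of the 21 clusters, and the part of this in its Lama5 level was not tested.

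In NK and innate lymphoid-like cells Lamb3 alone of the 9 stood at or above its level in epithelium-like cells: it had 18.1 CPM (14.1 to 22.9; 69 UMIs in 61 of 313 cells) in NK and innate lymphoid-like cells and 16.1 CPM (12.8 to 19.9; 82 UMIs) in epithelium-like cells, a ratio of 1.13 (0.806 to 1.57). B cell-like cells had 62.2 CPM (20.2 to 145) from 5 UMIs, T cell-like cells 17.2 CPM (2.08 to 62.0) from 2 and mononuclear phagocyte-like cells 3.31 CPM (0.901 to 8.47) from 4. NK and innate lymphoid-like cells exceeded mononuclear phagocyte-like cells 5.47-fold (2.04 to 20.7). Thinned to 2000 UMIs, 4.17% (2.10 to 7.33) of 264 NK and innate lymphoid-like cells had a UMI of Lamb3, 1.81% (0.666 to 3.89) of 332 epithelium-like cells, 0.323% of 310 undifferentiated stroma-like cells and none of 131 decidual stroma-like cells.

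Lama3 did not go with Lamb3 in NK and innate lymphoid-like cells. Lama3 and Lamb3 gave 2 and 69 UMIs there and 304 and 82 in epithelium-like cells. In the 146 NK and innate lymphoid-like cells with no UMI of the 10 epithelium markers Lamb3 had 17.6 CPM (10.6 to 27.4). The 3 clusters of the class, 2, 7 and 17, had 36.4 CPM (23.6 to 53.8), 14.5 CPM (9.77 to 20.7) and 13.3 CPM (7.29 to 22.4) of Lamb3, with epithelium markers summing to 172, 77.2 and 68.5 CPM, and the part of the latter was not tested. In the annotation Hsd11b1, a steroid-converting enzyme, and G0s2 lie within the span of Lamb3 on the other strand, and no source at hand states whether strand was used in counting. Hsd11b1 had 22.6 CPM (18.1 to 27.9; 86 UMIs) in NK and innate lymphoid-like and 315 CPM (299.5 to 330.5; 1606 UMIs) in epithelium-like cells, and G0s2 had 1 UMI in each. Whether reads from the other strand gave any of the Lamb3 UMIs was not tested.

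**Figure D5:**
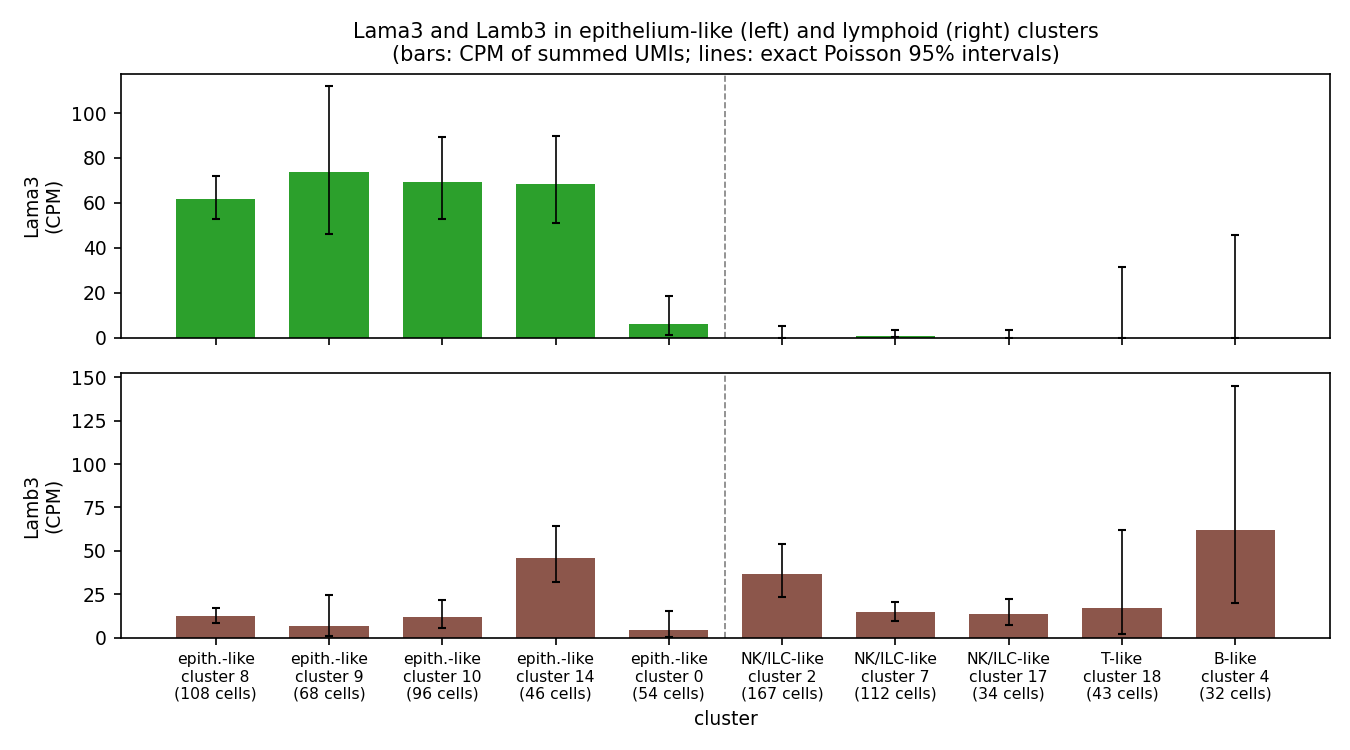
CPM of summed UMIs of Lama3 and Lamb3 in the 5 epithelium-like clusters and the 5 lymphoid clusters of 1 library, with exact Poisson 95% intervals as lines. Lamb3 stands at 13.3 to 36.4 CPM in the NK and innate lymphoid-like clusters, where Lama3 is at most 0.965 CPM.

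Single cells with an alpha chain (Lama1 included), a beta chain and Lamc1 were more frequent among decidual than among undifferentiated stroma-like cells. Thinned to 2000 UMIs, 16.03% (10.2 to 23.5) of 131 decidual stroma-like cells had at least 1 UMI of each, against 2.26% (0.913 to 4.60) of 310 undifferentiated stroma-like and 9.68% (3.63 to 19.9) of 62 endothelium-like cells. None of 332 epithelium-like, 80 mesothelium-like, 30 pericyte-like or 264 NK and innate lymphoid-like cells had them. The upper bounds were 1.10%, 4.51%, 11.6% and 1.39%. Before thinning the shares were 54.4% in decidual stroma-like, 10.6% in undifferentiated stroma-like, 59.7% in endothelium-like and 27.4% in epithelium-like cells. They were 15.9% in mesothelium-like, 40.5% in pericyte-like and 0 of 313 NK and innate lymphoid-like cells. A 0 at 2000 UMIs therefore does not show that a class lacks the chains. The chains of laminin 521 (Lama5, Lamb2, Lamc1) were found together in 47 of 149 decidual stroma-like and 1 of 416 undifferentiated stroma-like cells, at unequal depth. They were also found together in 18 of 67 endothelium-like and 46 of 372 epithelium-like cells. Those of laminin 211 (Lama2, Lamb1, Lamc1) were found together in 27 of 149 decidual stroma-like and 37 of 416 undifferentiated stroma-like cells. For laminin 411 (Lama4, Lamb1, Lamc1) the counts were 24 of 67 endothelium-like and 11 of 37 pericyte-like cells. Transcripts in 1 cell show nothing of the protein trimers that cells assembled.

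Over the 21 clusters, the genes whose level was most like that of each of the 9 were found by Pearson's r of log2(CPM + 5) among 8442 genes with at least 200 UMIs. The clusters share 1 library and differ in depth, so the values are descriptions. Lama2 was most like Bgn, Foxl2 and Rorb (r from 0.91 to 0.92), and Lama3 like Met, Tll1 and Mal (0.92 to 0.94). Lama4 was most like Fkbp10, Maoa and Sparc (0.93 to 0.94), and Lama5 like Etl4, Myo1d and Enah (0.89 to 0.90). Lamb1 was most like Ptk7, Klhl9 and Casp12 (0.92 to 0.94), and Lamb2 like Prnp, Amotl1 and Myh10 (0.90 to 0.91). Lamb3 had lower values, with Eif2ak3, Pde7a and Sik1 (0.78 to 0.87). Lamc1 was most like Phldb2, Amotl1 and Lamb2 (0.89 to 0.93), and Nid1 like Tbx3, Rhoj and Col4a2 (0.94 to 0.95). Among the 9 genes themselves Lamb2 with Lamc1 (0.89) and Lama4 with Nid1 (0.89) were closest, and Lamb3 with Nid1 (-0.68) were the most opposed.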

How the data were processed

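The deposited file holds raw UMI counts for each gene in each barcode, written by Cell Ranger 4.0.0 per the file headers, against mm10 according to the submitters' processing notes. The gene annotation, the cell calling settings and the use of strand were not given in the sources used here. Libraries were made with a 3' kit, per the labels' protocols. Features with a shared symbol were summed, which left 32247 symbols of 32287 features. Cells with at least 500 genes and at most 20% mitochondrial UMIs were kept, and Scrublet marked 13 of 1825 (0.712%) as doublets, which were removed, so undetected doublets may remain. Clustering used scanpy 1.11.5 (2000 variable genes, 30 components, 15 neighbours, Leiden resolution 1), without the 9 genes and the 38 listed genes. Clusters were named from 170 markers in 22 sets.

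UMIs were summed over cells (CPM), with exact Poisson intervals, and ratios have exact conditional binomial and shares Clopper-Pearson intervals (scipy 1.17.1). Cells are not replicates, so no test was made. The 9 genes and the lists were chosen with earlier results of these data known. In each comparison up to 2 highest and 2 lowest list genes that met the size rule are named, and Lama1 and Nid2 also because they complete a chain kind. An item of the list is not reported here. The overlapping genes Hsd11b1 and G0s2, and the cells without epithelium markers, were chosen after values were seen. Coordinates and overlaps come from GENCODE M21, and promoters from RefSeq on GRCm38.p6. The size rule was tested on simulated data, with an outcome not given here, and this does not replace replicate libraries.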

Additional observations from a re-analysis of the deposited data

How the results depend on the processing

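Counts of the 9 genes called were recomputed under 9 planned settings and, without the cluster of highest mitochondrial share in each class, 1 chosen after seeing the data. Of these and the count of genes that kept their highest class (6 to 9 of 9), 105 of 123 stayed within 1.5 times. Decidual against undifferentiated stroma-like cells gave 2 higher without the filter on cells and thinned (Lamb2, Lamc1) and 3 otherwise, and the lower count was 1 without the filter on cells (Lama4), 4 at 10% mitochondrial UMIs (with Lama4 and Nid1), 0 with equal weights and 1 thinned (Lama2). For the decidual clusters the lower count was 1 with equal weights, and thinned both counts were 0. For the epithelial clusters the higher count was 0 with equal weights, and thinned 0 were higher and 1 lower (Lama5). For endothelium-like against pericyte-like cells 0 were higher thinned, and 2 higher and 1 lower at a minimum of 20 UMIs. For epithelium-like cells against stroma 1 was higher thinned. For mesothelium-like cells 0 were higher without the filter, at 10% mitochondrial UMIs and thinned, and 2 at a minimum of 20 UMIs. Thinning leaves fewer UMIs and so fewer genes to compare, and it also moved ratios, as for Lamb2 between the epithelial clusters. The cause of the changes was not tested for any setting. 2 of 466 other values reversed: the ratio of Lama5 between epithelium-like and undifferentiated stroma-like cells without the filter (0.943) and that of Lamb2 between the epithelial clusters when thinned (0.727). The decidual clusters gave no comparison without the filter, at 10% mitochondrial UMIs or without the cluster of highest mitochondrial share. No paired analysis was possible because 1 library was analysed and no test was made. Depth limits Lamb3 (163 UMIs in all) and the B cell-like class (80426 UMIs) most.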
